A study of Homo sapiens with 6 samples.

Results

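The genes described here encode the machinery that brings proteins into mitochondria, the compartment of respiration and of many biosynthetic steps. There are 34 of them, chosen by symbol, among the 60617 rows of a table of read counts per Ensembl gene. The RNA came from NCI-H1299, an established human lung cancer cell line labelled as lung adenocarcinoma. Its 3 Sh1 libraries carry the genotype label of FuHsi knockdown and its 3 Puro libraries the label WT. All libraries came from the same line in the same medium. What Puro and Sh1 stand for is not spelled out, and FuHsi has no gene symbol in the labels, so its own level is not analysed here. Nothing in the labels says that libraries of a group came from separate cultures, so p-values measure only the spread between these libraries, which may be technical. The series addresses a possible nucleolar role of FuHsi.

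Nearly all mitochondrial proteins are made in the cytosol and must cross or enter 1 or both mitochondrial membranes. The TOM complex is the common gate of the outer membrane, with receptors that hold incoming proteins and a channel that passes them. From there, proteins with an amino-terminal presequence go through the TIM23 translocase and are drawn into the matrix by the PAM motor. Carrier proteins of the inner membrane travel with the small TIM chaperones to the TIM22 translocase. Outer-membrane barrels are inserted by the SAM complex, and small cysteine-rich proteins of the intermembrane space are trapped there by the MIA disulfide relay.

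The libraries held 24231515 to 27900051 counts in Sh1 and 30735547 to 34306849 in Puro. Levels are given in CPM, reads scaled to a library total that was first multiplied by the library's TMM factor. These factors were 1.05 to 1.06 in Sh1 and 0.941 to 0.954 in Puro. The summed marker levels in this paragraph were scaled by library total alone. Libraries of 1 group correlated at 0.990 to 0.992 in log2 CPM, and libraries of different groups at 0.963 to 0.969. Of the markers named for lung adenocarcinoma, SFTPA1 and SFTPC were at 0 in every library, and the summed level of the 5 genes was 0.742 to 1.11 CPM in Sh1 and 0.0874 to 0.423 CPM in Puro. The labelled type was therefore not visible in these markers. Epithelial and mesenchymal markers were mixed. The keratin KRT8 was at 320 ± 7.43 CPM in Sh1 and 494 ± 6.43 CPM in Puro, and the mesenchymal filament VIM at 839 ± 29.5 CPM in Sh1 and 1366 ± 31.6 CPM in Puro (SD, n = 3 each); their log2 fold changes were -0.63 and -0.70. KRT18 and CDH2 were expressed and not called, KRT7 was low and rose by 1.72, and the epithelial genes EPCAM and CDH1 had at most 14 and 8 counts in any library. Summed levels of 9 leukocyte, endothelial and fibroblast markers were 4.58 to 5.65 CPM in Sh1 and 2.90 to 3.54 CPM in Puro, and their part in the results was not tested.

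Import genes were mostly lower in the knockdown libraries. Of the 32 members with enough counts to test, 20 fell and 1 rose at a Benjamini-Hochberg adjusted p under 0.05 in edgeR's quasi-likelihood test over 17223 genes. The outer-membrane receptor TOMM70 fell furthest, with a log2 fold change of -1.68, and the outer-membrane channel TOMM40 came next, at -1.10. The motor scaffold TIMM44 was the 1 member to rise, by 0.32. All 5 members of the TIM23 translocase and all 4 of the SAM group fell, while neither member of the TIM22 translocase was called. In bulk RNA, fewer cells of a kind and less RNA per cell cannot be told apart.

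These counts stand against a broad change. Of all tested genes, 61.6% were called, 30.9% lower and 30.7% higher, and the median log2 fold change was 0.03, against -0.39 for the tested members. Falls of at least 0.5 log2 units were called for 11 members and for 13.8% of tested genes, and falls of at least 1 for 2 members and 3.12% of tested genes. The 3 Sh1 values lay below the 3 Puro values for 22 members, above them for 2 and overlapped them for 8. Over all tested genes 32.3% lay below and 33.0% above. Scaled by library size alone, the fold changes of all genes were higher by 0.15 at the median, and 19 members were then lower and 4 higher, the additional 3 being TOMM7, TIMM10B and HSPA9.

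**Figure D1:**
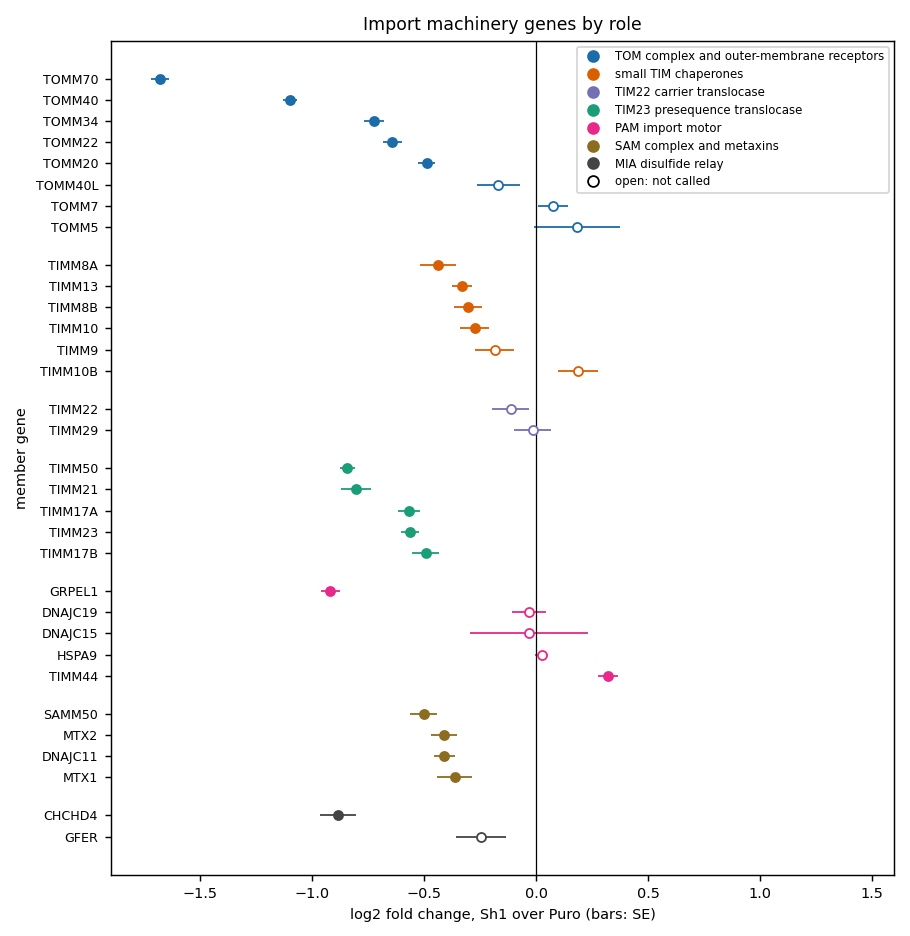
Log2 fold change (Sh1 over Puro, with SE) of the 32 tested members by role; filled points passed the test and open points did not. TOMM70 and TOMM40 lie furthest left at -1.68 and -1.10, and TIMM44 is the 1 filled point right of 0.

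Abundant genes were called lower more often throughout the table. With the tested genes split into 5 equal classes by abundance, 20 members were in the 2 highest classes, and 17 of these fell, with a median log2 fold change of -0.50. In those 2 classes 53.1% of all genes were called lower and the median was -0.14. A fall of at least 0.5 was called for 10 of these 20 members, and for 19.7% of all genes in the same classes. The other 12 members had 3 falls and a median of -0.14.

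**Figure D2:**
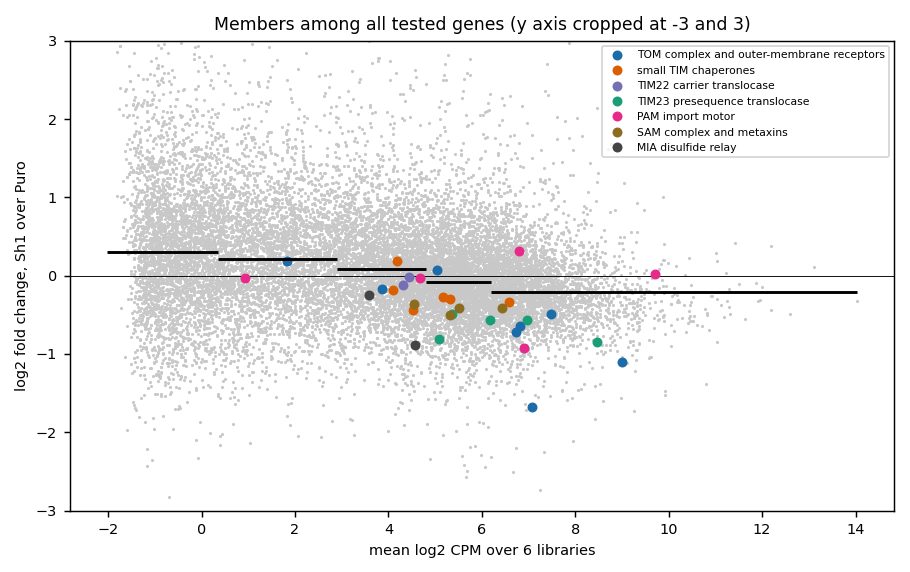
Log2 fold change (Sh1 over Puro) against mean log2 CPM for every tested gene (grey) and the 32 tested members (coloured by role); black lines are medians of 5 equal abundance classes. Most coloured points at high abundance lie below the black line of their class, with TIMM44 and HSPA9 among the exceptions.

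The members' summed level was lower in all 3 Sh1 libraries. It was 2708, 2779 and 2744 CPM in Sh1, against 3858, 3823 and 3958 CPM in Puro. HSPA9 alone made up 30.7% ± 0.531 of the sum in Sh1 and 21.3% ± 0.347 in Puro (SD, n = 3 each). Without it the sums were 1902 ± 12.7 CPM in Sh1 and 3053 ± 68.6 CPM in Puro. By role, the sum for the TOM group was 757 ± 4.52 CPM in Sh1 and 1429 ± 25.8 CPM in Puro, and the ratio of the group means, 0.530, was the lowest of the 7 roles. The PAM sum, which HSPA9 dominates, was 1075 ± 30.3 CPM in Sh1 and 1111 ± 10.6 CPM in Puro.

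**Figure D3:**
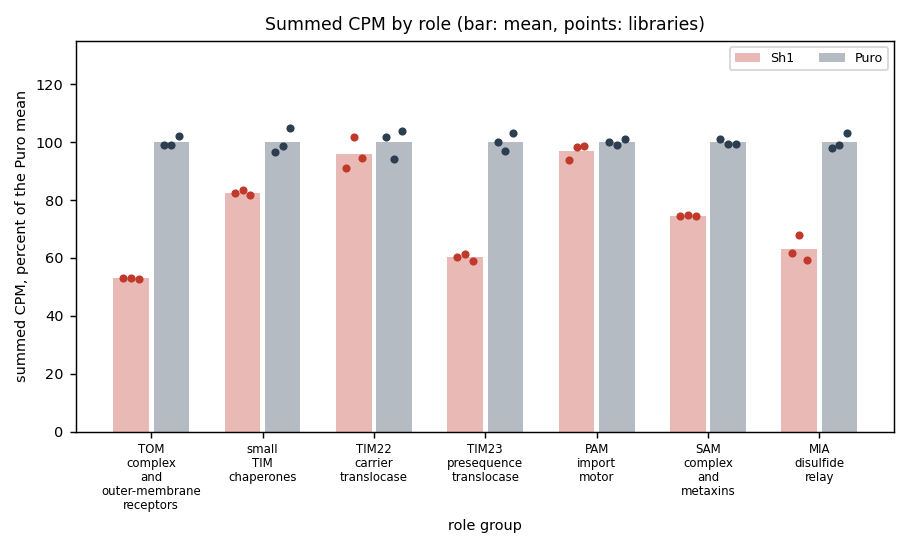
Summed CPM of the tested members of each role, as percent of the Puro mean; bars are means of 3 libraries and points are libraries. Sh1 points lie below the Puro points in every role but the TIM22 translocase, where they overlap, and in the PAM motor the groups lie close together.

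The promoters of 31 members were found in RefSeq's table (GRCh38.p14; 250 bases before to 50 after the start), and GRPEL1, TIMM8B and TOMM5 had no entry. They were searched on both strands for motifs of factors known to act on nuclear genes for mitochondrial proteins and of the ATF4 stress response. An NRF1 motif (GCGCANGCG) was in 11 of the 31 and in 7.52% of all 35116 promoters in the table. The core bound by ETS factors such as GABP (CCGGAAG) was in 12 of the 31 and in 10.3% of all. A YY1 core (AAGATGGC) was in 3 of the 31 and 2.89% of all, the E-box CACGTG in 4 and 7.26%, and the ATF4 and C/EBP composite element (TGANGCAA) in 3 and 3.22%.  Of 10 tested members with the NRF1 motif 7 fell, with a median of -0.45, and of 19 without it 11 fell, with a median of -0.36. Of 11 with the ETS core 8 fell (median -0.41), and of 18 without it 10 fell (median -0.39). For the YY1 core 2 of 3 with it and 16 of 26 without it fell, and for the E-box 3 of 4 and 15 of 25. For the composite element 0 of 2 with it and 18 of 27 without it fell. Of all tested genes 30.9% were called lower, and 53.1% in the 2 highest abundance classes. Whether carrying a motif goes with a fall was not tested. A match is a run of letters and not a shown site. The shares of all promoters cover the whole table and not only tested genes. They are no matched background, and whether the motifs are particular to import genes was not tested.

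Windows are shown for the members with the 2 largest falls, for the relay oxidoreductase CHCHD4, which carries the NRF1 motif at 2 places, and for TIMM44, which rose. Capitals mark motif matches. TOMM70 (chr3:100401040-100401339, minus strand) has the ETS core with first bases at -104 and -19 from the start. TOMM40 (chr19:44891004-44891303, plus strand) has the NRF1 motif at -222. In CHCHD4 (chr3:14124821-14125120, minus strand) the motif matches overlap each other on opposite strands at -152 and -151, and a further match is at -86. TIMM44 (chr19:7943617-7943916, minus strand) has the composite element at -31. The other 2 promoters with it are those of PAM16, which could not be tested, and TIMM22, which was not called. Whether the element bears on the rise of TIMM44 was not tested.
TOMM70: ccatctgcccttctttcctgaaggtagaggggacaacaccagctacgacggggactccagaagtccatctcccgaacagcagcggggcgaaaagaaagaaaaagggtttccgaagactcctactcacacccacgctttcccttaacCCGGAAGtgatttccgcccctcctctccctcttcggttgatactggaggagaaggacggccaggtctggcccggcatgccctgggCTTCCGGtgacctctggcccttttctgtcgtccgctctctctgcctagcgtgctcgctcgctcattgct
TOMM40: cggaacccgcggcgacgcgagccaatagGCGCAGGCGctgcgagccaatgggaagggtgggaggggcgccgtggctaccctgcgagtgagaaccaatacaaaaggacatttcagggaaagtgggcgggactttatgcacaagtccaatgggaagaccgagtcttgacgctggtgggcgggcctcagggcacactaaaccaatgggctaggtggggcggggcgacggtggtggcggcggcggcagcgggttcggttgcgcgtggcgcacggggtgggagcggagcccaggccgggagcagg
CHCHD4: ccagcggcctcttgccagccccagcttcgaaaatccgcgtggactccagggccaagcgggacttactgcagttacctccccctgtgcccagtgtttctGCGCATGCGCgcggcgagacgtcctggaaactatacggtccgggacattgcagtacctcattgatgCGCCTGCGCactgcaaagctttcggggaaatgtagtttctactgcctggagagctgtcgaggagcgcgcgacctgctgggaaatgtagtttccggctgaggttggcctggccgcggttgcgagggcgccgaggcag
TIMM44: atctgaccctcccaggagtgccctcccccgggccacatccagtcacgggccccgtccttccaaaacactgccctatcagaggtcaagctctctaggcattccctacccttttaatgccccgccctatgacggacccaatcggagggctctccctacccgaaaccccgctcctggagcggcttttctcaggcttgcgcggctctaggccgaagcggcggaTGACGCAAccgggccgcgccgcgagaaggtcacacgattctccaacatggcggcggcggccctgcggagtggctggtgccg

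In the TOM complex, the receptors and the channel fell, and the 2 small subunits that could be tested, TOMM5 and TOMM7, were not called. TOMM70 (ENSG00000154174, GRCh38 chromosome 3, 100363431 to 100401398, minus strand) is the receptor for carrier precursors, which it takes over from cytosolic HSP90 and HSP70; it is also known as a docking site for antiviral signalling through MAVS. It was at 65.0, 62.7 and 62.4 CPM in Sh1, against 205, 201 and 204 CPM in Puro. The groups were far apart and each was tight. The log2 fold change was -1.68 ± 0.04 (SE), 3.21-fold lower, with an adjusted p of 5.42e-41, and 0.389% of tested genes had a lower fold change.

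The 7-base word CTATTGA, which an earlier scan of these same fold changes linked to falls, occurs in exon 11 of 12 of the principal TOMM70 transcript at 2 places in the coding sequence. Because the word was picked from these data, its presence is no independent evidence. The first place (chr3:100368101-100368107, minus strand) and the second (chr3:100368053-100368059) are shown with 10 bases on either side and the word in capitals; the flank of the second crosses an exon junction. The match in TOMM34 (chr20:44948787-44948793, minus strand, exon 5 of 7, coding) is given beside them.
TOMM70 first: atcagcaaggCTATTGAaattgacaat
TOMM70 second: accatgggaaCTATTGAagtacaaaga
TOMM34: cataagaaagCTATTGAgaagtacagt

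The same word lies in the 3′ UTR of the principal transcript of TOMM40L, which was not called. Related words from that scan lie in the coding sequence of TIMM21 (ACCTATT) and MTX1 (CCTATTG). In CHCHD4 the word CCTATTG lies in the annotated 5′ UTR of the principal transcript used here. It follows closely on an ATG there, so it may be coding in another transcript. The word ACACATC was also searched and had no match in any member's principal transcript.

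TOMM40 (ENSG00000130204, chromosome 19, 44890569 to 44903689, plus strand) forms the barrel through which nearly all imported proteins pass. It was at 326, 334 and 314 CPM in Sh1, against 684, 683 and 719 CPM in Puro, 2.14-fold lower with an adjusted p of 3.05e-37. Its close paralog TOMM40L was much scarcer and was not called. TOMM40L was at 13.1, 14.7 and 13.2 CPM in Sh1, against 16.0, 14.98 and 15.1 CPM in Puro, so its log2 fold change was -0.17 ± 0.10 (SE; adjusted p = 0.122). Of its exonic bases, 20.2% also belong to other genes, mainly NR1I3 on the opposite strand.

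The presequence receptors moved the same way to a lesser degree. TOMM22, the central receptor that joins the others to the channel, was at 83.3, 92.4 and 87.9 CPM in Sh1, against 132, 135.5 and 144 CPM in Puro. Its log2 fold change was -0.64. TOMM20, which recognises presequences first, was at 155, 143 and 149 CPM in Sh1, against 209, 213 and 207 CPM in Puro, a log2 fold change of -0.49. TOMM34, a cytosolic cofactor of HSP70 and HSP90 that carries precursors, was at 76.9, 78.7 and 85.2 CPM in Sh1, against 130.05, 132 and 136 CPM in Puro. It fell by 0.73 on the log2 scale, and in none of these 3 genes did the groups overlap.

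The small TOM subunits steady the channel. TOMM7, which is also needed to hold the kinase PINK1 at the outer membrane of damaged mitochondria, was at 34.6, 31.1 and 35.6 CPM in Sh1 and 34.6, 30.6 and 30.9 CPM in Puro. Its adjusted p was 0.359, and scaling by library size alone gave a call at 0.23. TOMM5 was at 3.72 ± 0.468 CPM in Sh1 and 3.28 ± 0.693 CPM in Puro (SD, n = 3 each), with an adjusted p of 0.424. TOMM6 was listed at 0 in all 6 libraries; all of its exonic bases are shared with the same-strand gene AL365205.1, and the sources used here do not say how reads that fit 2 genes were counted.

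Ratios of counts within a library do not depend on scaling. TOMM70 to TOMM20 was 0.418, 0.438 and 0.419 in Sh1, against 0.982, 0.943 and 0.988 in Puro. TOMM40L to TOMM40 was 0.0403, 0.0440 and 0.0420 in Sh1, against 0.0234, 0.0219 and 0.0210 in Puro. Receptors thus did not shift in equal measure, and the scarce channel paralog made up more of the pair in knockdown. Of 13 ratios computed, 10 had groups that lay apart; the share among ratios of other gene pairs was not computed, so nothing is read from this count. The exact two-sided permutation p of each was 0.1, the smallest that 3 against 3 libraries can give, and 0.13 after Benjamini-Hochberg adjustment over the 13.

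**Figure D4:**
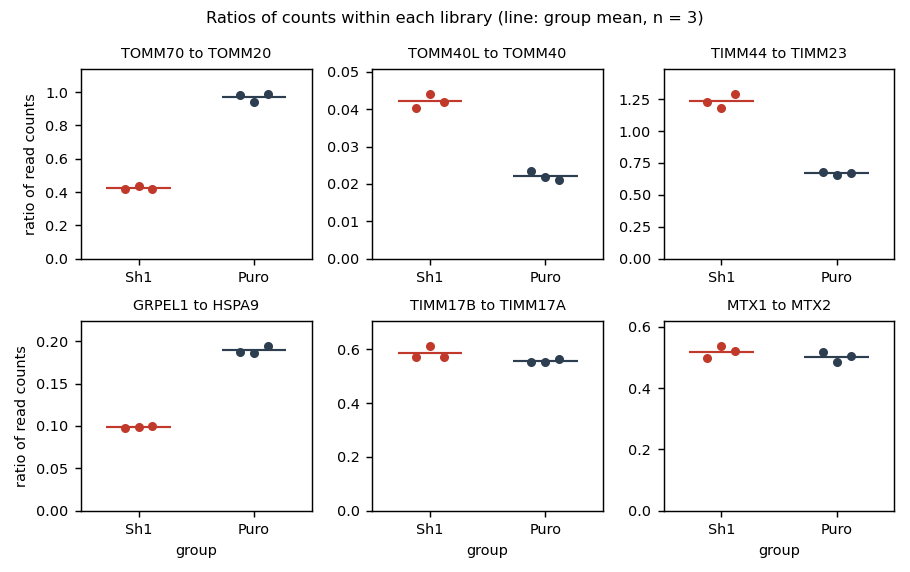
Ratios of read counts between pairs of members in each library, with group means (n = 3 each). The groups lie apart for TOMM70 to TOMM20, TOMM40L to TOMM40, TIMM44 to TIMM23, GRPEL1 to HSPA9 and, narrowly, TIMM17B to TIMM17A, and overlap for MTX1 to MTX2.

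The TIM23 translocase fell in every subunit measured. TIMM50, the receptor that takes presequences from the TOM exit, was at 255, 262 and 243 CPM in Sh1, against 454, 440.5 and 472 CPM in Puro. It was 1.80-fold lower, with an adjusted p of 3.34e-30. TIMM21, which tethers TIM23 to the TOM complex and to respiratory enzymes, was at 25.3, 24.6 and 23.96 CPM in Sh1, against 45.5, 41.9 and 41.7 CPM in Puro. It fell by 0.81 on the log2 scale, and the other 3 subunits fell by similar, smaller amounts.

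TIMM23, the central subunit, was at 99.3, 98.5 and 102 CPM in Sh1, against 143, 146 and 155 CPM in Puro, a log2 fold change of -0.56. A near-copy, TIMM23B, behaved otherwise: it was at 12.1 ± 1.79 CPM in Sh1 and 9.35 ± 0.551 CPM in Puro (SD, n = 3 each), and rose by 0.37 with an adjusted p of 0.00393. Reads of this pair may be split between the rows, so the value of each is uncertain. TIMM17A and TIMM17B are alternative partners of TIMM23 in the channel. TIMM17A was at 57.8, 59.0 and 57.6 CPM in Sh1, against 88.9, 82.5 and 87.1 CPM in Puro. TIMM17B was at 33.0, 36.2 and 33.0 CPM in Sh1, against 49.1, 45.6 and 49.0 CPM in Puro. The log2 fold changes were -0.57 and -0.49, so both alternatives fell, and the ratio of TIMM17B to TIMM17A was 0.585 ± 0.0240 in Sh1 and 0.556 ± 0.00608 in Puro (SD, n = 3 each).

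**Figure D5:**
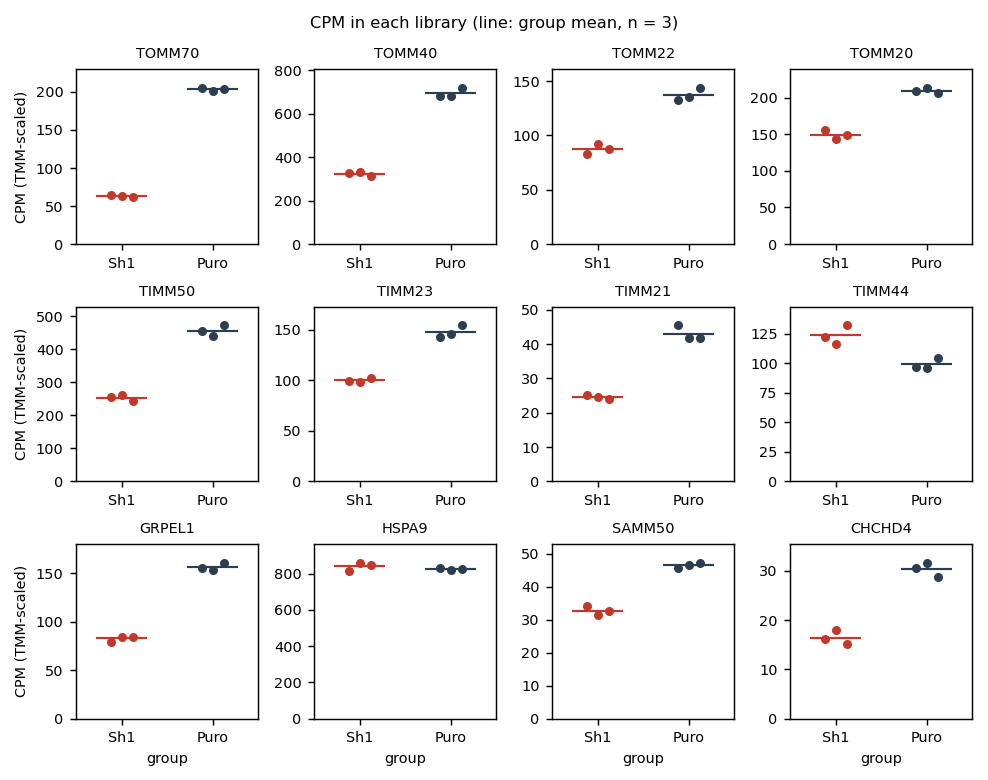
CPM in each library for 12 members, Sh1 left and Puro right, with group means as lines. Sh1 points lie below Puro points in every panel but TIMM44, where they lie above, and HSPA9, where they overlap.

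The PAM motor was not uniform: 1 subunit rose, 1 fell and 3 were not called. HSPA9, the mitochondrial HSP70 that pulls proteins into the matrix, was at 814, 862 and 849 CPM in Sh1, against 830.1, 823 and 828 CPM in Puro. The groups overlapped, and the adjusted p was 0.478 with a log2 fold change of 0.02 ± 0.03 (SE). Scaling by library size alone gave a call at 0.18, and upper-quartile factors gave one at 0.09. GRPEL1, its nucleotide exchange factor, was at 79.1, 84.8 and 84.7 CPM in Sh1, against 155, 154 and 161 CPM in Puro, 1.89-fold lower with an adjusted p of 1.03e-27. The ratio of GRPEL1 to HSPA9 was 0.0985 ± 0.00133 in Sh1 and 0.190 ± 0.00447 in Puro (SD, n = 3 each). So the chaperone and its cofactor, which work together, differed in how far they moved.

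TIMM44, which anchors HSPA9 at the exit of the TIM23 channel, was at 122, 116 and 132 CPM in Sh1, against 96.8, 95.8 and 104 CPM in Puro. All 3 Sh1 values lay above the Puro values, and the log2 fold change was 0.32 ± 0.04 (SE; adjusted p = 9.16e-09). It was higher under all 15 alternatives tried, by 0.26 to 0.47. The ratio of TIMM44 to TIMM23 was 1.23 ± 0.0549 in Sh1 and 0.669 ± 0.0126 in Puro (SD, n = 3 each), so anchor and channel moved apart. DNAJC19, a J-protein of the motor, was at 23.8, 24.6 and 27.4 CPM in Sh1, against 25.7, 25.9 and 25.9 CPM in Puro, with an adjusted p of 0.723. Its paralog DNAJC15 was near the floor, at 1.22, 2.21 and 2.11 CPM in Sh1, against 1.71, 1.97 and 1.94 CPM in Puro, with an adjusted p of 0.929. Both were at -0.03 on the log2 scale. PAM16, the regulator of the J-proteins, had 5 to 8 counts in Sh1 and 6 to 15 in Puro and was not tested; 21.9% of its exonic bases are shared with the read-through gene CORO7-PAM16.

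The small TIM chaperones, which ferry hydrophobic precursors across the intermembrane space, fell by little. Of 6 members 4 fell, none by 0.5 log2 units. TIMM8A, whose loss causes a deafness and dystonia syndrome, was at 19.6, 19.8 and 18.6 CPM in Sh1, against 24.6, 26.4 and 27.8 CPM in Puro, a log2 fold change of -0.44. TIMM10 was at 30.7, 34.3 and 31.9 CPM in Sh1, against 39.6, 37.0 and 40.7 CPM in Puro, a log2 fold change of -0.28, and lost its call with library size alone (-0.12). TIMM13 and TIMM8B fell by 0.33 and 0.30, and TIMM8B shares 32.3% of its exonic bases with genes on the opposite strand. TIMM13 shares 28.9%, in part with LMNB2 on the same strand.

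TIMM9, which forms a ring with TIMM10, had a log2 fold change of -0.19 and an adjusted p of 0.0637, short of a call, although its groups lay apart. It shares 30.5% of its exonic bases with genes on the opposite strand. TIMM10B, which sits on the TIM22 translocase, was at 19.3 ± 0.852 CPM in Sh1 and 16.96 ± 1.41 CPM in Puro (SD, n = 3 each). Of its exonic bases 14.6% are shared, mostly with AC084337.2 on the same strand. Every Sh1 value of TIMM10B lay above every Puro value, but its log2 fold change of 0.19 had an adjusted p of 0.0610. It passed under 5 alternatives, at 0.21 to 0.34, and without Puro replicate 1 it was at 0.12 (edgeR adjusted p = 0.317). The ratio of TIMM10B to TIMM10 was 0.599 ± 0.0589 in Sh1 and 0.435 ± 0.0529 in Puro (SD, n = 3 each).

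The TIM22 translocase, which inserts carriers into the inner membrane, was the role with no call. Both its members were among the 12 outside the 2 highest abundance classes, of which 3 fell. All 5 TIM23 members were in those 2 classes, so role and abundance cannot be told apart in this contrast. Its channel TIMM22 was at 17.7, 19.6 and 20.0 CPM in Sh1, against 20.9, 19.6 and 21.5 CPM in Puro, with an adjusted p of 0.238. TIMM29, a partner that links it to the TOM complex, was at 21.4 ± 1.87 CPM in Sh1 and 21.6 ± 1.17 CPM in Puro (SD, n = 3 each), with an adjusted p of 0.884. The groups overlapped for both genes. The ratio of TIMM22 to TIMM23 was 0.191 ± 0.0107 in Sh1 and 0.140 ± 0.00616 in Puro, apart in every library.

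All 4 members of the SAM group fell, within a narrow range of -0.50 to -0.36. SAMM50, MTX2 and DNAJC11 were in the 2 highest abundance classes, where 53.1% of all genes were called lower. SAMM50, the barrel that inserts other barrels, was at 34.01, 31.5 and 32.7 CPM in Sh1, against 45.5, 46.5 and 47.3 CPM in Puro. MTX1 was at 19.5, 20.6 and 20.8 CPM in Sh1, against 26.5, 26.1 and 25.8 CPM in Puro. It shares 21.9% of its exonic bases with genes on the opposite strand. MTX2 was at 39.2, 38.3 and 39.9 CPM in Sh1, against 51.3, 53.7 and 51.0 CPM in Puro. The metaxins are partners of SAMM50 at the outer membrane, and the groups did not overlap for any of the 3. DNAJC11, a J-protein bound to the SAM complex, fell by 0.41; THAP3 on the opposite strand overlaps 27.9% of its exonic bases. MTX1 to MTX2 was 0.519 ± 0.0200 in Sh1 and 0.503 ± 0.0157 in Puro (SD, n = 3 each), with an exact two-sided permutation p of 0.4. MTX3, a paralog outside the member list that is named after its value was seen, rose by 0.57.

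In the MIA relay, CHCHD4 (ENSG00000163528, chromosome 3, 14112077 to 14124870, minus strand) oxidises incoming proteins. It was at 16.2, 17.9 and 15.2 CPM in Sh1, against 30.6, 31.7 and 28.8 CPM in Puro, 1.85-fold lower with an adjusted p of 6.58e-15. GFER, the sulfhydryl oxidase that recharges it, was not called, and 25.9% of its exonic bases also belong to a gene on the opposite strand. GFER was at 10.5, 11.6 and 10.5 CPM in Sh1, against 11.8, 11.2 and 15.8 CPM in Puro. The groups overlapped, and Puro replicate 3 was the highest. Its log2 fold change was -0.25 ± 0.11 (SE), with an adjusted p of 0.0533, and the call was gained under 6 alternatives, at -0.26 to -0.35. Without Puro replicate 3 the value was -0.09 (edgeR adjusted p = 0.566), and with library size alone it was -0.09 (adjusted p = 0.495).

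Levels between genes were compared per kilobase of the principal transcript. Which transcripts were expressed was not measured, so the order rests on annotated lengths, such as 1725 bases for TOMM40 and 4727 for HSPA9. The SDs below do not cover this. TOMM40 was highest in both groups, at 188 ± 5.70 CPM per kb in Sh1 and 403 ± 11.8 in Puro (SD, n = 3 each). HSPA9 was at 178 ± 5.24 in Sh1 and 175 ± 0.778 in Puro, and TIMM50 at 98.6 ± 3.62 in Sh1 and 177 ± 6.23 in Puro. In Puro, HSPA9 and TIMM50 did not differ beyond their spread. In Sh1, TOMM40 stood above HSPA9 by no more than the sum of their SDs, and TIMM50 was well below both. TOMM70 was at 14.4 ± 0.321 in Sh1 and 46.2 ± 0.503 in Puro, and DNAJC15 was lowest, at 0.235 ± 0.0696 in Sh1 and 0.239 ± 0.0180 in Puro.

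Other genes of the import route were read from 8 further lists. For comparison, 30.9% of all tested genes were called lower and 30.7% higher. In the 2 highest abundance classes 53.1% were called lower, and the median there was -0.14. The lists were not matched to other genes by abundance, so list counts near these shares are not read as results about the lists. Substrates of the MIA relay with paired CX9C motifs had the lowest median of the 8, at -0.57, with 14 falls and 1 rise among the 17 tested. CHCHD10, of the intermembrane space, was at 4.33, 2.84 and 3.60 CPM in Sh1, against 14.7, 14.4 and 15.4 CPM in Puro, a log2 fold change of -2.04, and COX19, a factor of cytochrome oxidase assembly, rose by 0.39. They share 18.1% and 21.4% of their exonic bases with MMP11 and ADAP1 as the main partners. Of 9 presequence peptidases 5 fell and 0 rose (median -0.13); PITRM1, which degrades cleaved presequences, fell by 0.62 and shares 19.8% of its exonic bases, mostly with its antisense gene.

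Of 10 tested import factors of other kinds, 5 fell and 4 rose (median -0.01). ATAD1, the outer-membrane ATPase that extracts mislocalised proteins, was at 91.0, 97.5 and 99.4 CPM in Sh1, against 47.7, 46.1 and 43.6 CPM in Puro, and rose by 1.07. AIFM1, which binds CHCHD4 and aids its import, fell by 0.46. GRPEL2, the paralog of GRPEL1 and also named after its value was seen, rose by 0.19 with an adjusted p of 0.0140. Of 13 cytosolic targeting chaperones 8 fell and 4 rose (median -0.15), with the J-protein DNAJB6 at 0.86.

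Inside the organelle, of 11 genes for matrix folding and quality control 6 fell and 2 rose (median -0.19). HSPE1, the cochaperonin of HSPD1, fell by 0.97 and shares 23.9% of its exonic bases, mostly with HSPD1. HTRA2, an intermembrane-space protease, rose by 0.32 and shares 36.9%, mostly with LOXL3. Of 7 MICOS genes, which shape cristae, 4 fell and 0 rose (median -0.19), with APOO at -0.93.

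Of 12 regulators of mitochondrial biogenesis 6 fell and 4 rose (median -0.13). TFB2M, a mitochondrial transcription factor, fell by 0.77, and PPARGC1A, a coactivator of NRF1 and other factors, rose by 0.83 at the low level of 11.4 ± 1.27 CPM in Sh1 and 6.38 ± 0.360 CPM in Puro (SD, n = 3 each). Of 10 tested genes for mitophagy and import stress 3 fell and 5 rose (median 0.03). DDIT3, a stress transcription factor, was at 60.8, 63.1 and 72.4 CPM in Sh1, against 10.1, 10.0 and 9.90 CPM in Puro. It rose by 2.71 and shares 39.6% of its exonic bases, mostly with the gene for methionyl-tRNA synthetase. BNIP3, a mitophagy receptor, fell by 0.76.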

How the data were processed

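The authors deposited 1 table of read counts per Ensembl gene, without normalization, with 1 column for each of the 6 libraries. The submitters' processing notes list hg38 and, without their roles, featureCounts 2.0.1, STAR 2.7.0d, DESeq2 1.30.1 and Trim Galore 0.6.6. The annotation release, strand setting and treatment of reads that fit several places were not given in the sources used here, so genes that share bases are uncertain. Per the labels' protocols, libraries of total RNA were made with a TruSeq kit. Columns were matched to samples by title.

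Symbols came from a table of gene names and GENCODE 29, which also gave coordinates, exonic sharing and the principal coding transcript. Counts were filtered with filterByExpr (minimum 10), given TMM scaling factors and tested with edgeR 4.0.16 (quasi-likelihood, robust) in R 4.3.3, group being the only term, with Benjamini-Hochberg adjustment over all tested genes. The common biological coefficient of variation was 4.67%. The fit was tested on simulated counts. SE was derived from the test statistic.

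Alternatives were other size factors, filters, depth, DESeq2 1.42.0, limma 3.58.1 and leaving out each library. Members, gene lists, words and motifs were chosen with earlier results of these data known. Every member is named; values per library are given for core subunits, for the largest change of each role, for called changes of at least 0.5 and for paralog pairs, and each list names its largest called rise and fall at a mean log2 CPM of at least 1, except for 1 result that is not reported here.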

Additional observations from a re-analysis of the deposited data

How the results depend on the processing

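Over the 15 alternatives, members called lower numbered 19 to 21, and TIMM44 stayed higher in each. Members called higher, 1 with TMM factors, numbered 3 with upper-quartile factors, 4 with library size alone, 2 with a minimum count of 50, 2 with libraries thinned to the smallest, and 1 to 2 when a library was left out; without Puro replicate 2 the count was 2. With library size alone the members' median was -0.23, and the Sh1 to Puro ratio of their summed CPM, 0.707 with TMM, was 0.787, against 0.737 with upper-quartile factors. These scalings raised the median of all genes by 0.15 and 0.06.

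Some members that were not called with TMM factors and all 6 libraries changed sign under an alternative. HSPA9, which is among them, was called higher with library size alone and with upper-quartile factors. With library size alone TIMM22 was at 0.039, TIMM29 at 0.14, DNAJC19 at 0.12 and DNAJC15 at 0.12. With upper-quartile factors TIMM29 was at 0.045, DNAJC19 at 0.027 and DNAJC15 at 0.029, and with a minimum count of 50 they were at 0.019, 0.0012 and 0.00062 in that order. Thinning put DNAJC15 at 0.051, and DESeq2 put HSPA9 at -1.74e-05. Leaving out each library gave -0.10 to 0.024 for TIMM29, -0.10 to 0.0036 for DNAJC19, -0.19 to 0.20 for DNAJC15 and -0.0036 to 0.044 for HSPA9. TIMM9 was called without Sh1 replicate 3, at -0.22. The cause of these changes was not tested.

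With replicate number as a block, 20 members were lower and 1 higher, with a median of -0.39. Same-numbered libraries showed no shared deviation from their group means over all tested genes (correlations -0.00075, -0.0064 and -0.023). Differently numbered libraries are not given for comparison, so this cannot exclude a pairing. Members that share over 10% of exonic bases with other genes were left out, a choice made after seeing the data. This left 23, of which 16 were lower and 1 higher, with a median of -0.49. The 9 tested members left out were TOMM5, TOMM40L, TIMM8B, TIMM9, TIMM10B, TIMM13, MTX1, DNAJC11 and GFER. Low counts limit DNAJC15, at 36 to 64 reads a library, and TOMM6 and PAM16 could not be tested.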
